A study of Homo sapiens with 6 samples.

Results

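The C/D box small nucleolar RNAs (snoRNAs) of KhES-1 cells, a long-established line of human embryonic stem cells, were compared between AKIT medium and E8 medium. Members were chosen by symbol and by measured level: the table rows, each 1 gene symbol, whose symbol starts with SNORD and whose mean over all AKIT and E8 libraries was at least 1 RPKM (reads scaled by row length and library depth). The rule took 152 of 262 SNORD rows in a table of 23346 rows. It used the overall mean, so the levels below are a description and carry no test. The difference between the media was not part of the rule. The series has 6 samples, of which 3 AKIT libraries and E8 replicates 1 and 2 were used, and E8 replicate 3 was not analysed here. AKIT is known as a medium that replaces growth factors with azakenpaullone, an inhibitor of the kinase GSK3, ID-8, an inhibitor of DYRK kinases, and tacrolimus, an inhibitor of calcineurin. E8 is the control, a defined medium with FGF2 and TGF-beta. Both groups were the same cell line on dishes with a coat of a laminin fragment (0.5 µg for each square cm). The labels do not say whether the libraries came from separate cultures, so p-values measure only the spread between these libraries, which may be technical.

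C/D box snoRNAs are short nucleolar RNAs named for a C box near the 5′ end and a D box near the 3′ end. Most are cut out of introns of a longer host transcript and guide the methylation of ribosomal RNA by the protein fibrillarin. Others, called orphans, have no known ribosomal target. Many orphans lie in imprinted clusters: the SNHG14 transcript on chromosome 15, which is made from the paternal chromosome, carries SNORD107, SNORD64, SNORD108, SNORD109A and the repeated SNORD116 and SNORD115 copies, and the loss of its SNORD116 copies is associated with Prader-Willi syndrome. The MEG8 transcript on chromosome 14, which is made from the maternal chromosome, carries the SNORD113 and SNORD114 copies.

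The sequences below are those of 9 of the 10 members past the test, shown for the size and the boxes of the RNAs the results turn on, with SNORD116-24 added as a copy of the SNORD116 family whose difference had the other sign. The remaining member past the test is SNORD75. They are written 5′ to 3′ from the GENCODE release 29 transcripts (GRCh38), and capitals mark a C box TGATGA that starts in the first 15 bases and a D box CTGA in the last 15 bases.
SNORD107: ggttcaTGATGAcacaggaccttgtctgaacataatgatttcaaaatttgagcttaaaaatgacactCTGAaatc
SNORD64: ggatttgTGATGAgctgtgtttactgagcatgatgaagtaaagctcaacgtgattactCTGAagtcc
SNORD116-4: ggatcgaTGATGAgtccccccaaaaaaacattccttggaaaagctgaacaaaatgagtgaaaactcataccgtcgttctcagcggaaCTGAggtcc
SNORD116-24: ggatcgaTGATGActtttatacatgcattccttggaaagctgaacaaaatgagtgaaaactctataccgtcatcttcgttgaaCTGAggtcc
SNORD113-4: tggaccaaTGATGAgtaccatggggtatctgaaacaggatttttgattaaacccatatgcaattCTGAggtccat
SNORD114-13: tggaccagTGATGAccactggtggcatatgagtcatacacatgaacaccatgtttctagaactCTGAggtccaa
SNORD17: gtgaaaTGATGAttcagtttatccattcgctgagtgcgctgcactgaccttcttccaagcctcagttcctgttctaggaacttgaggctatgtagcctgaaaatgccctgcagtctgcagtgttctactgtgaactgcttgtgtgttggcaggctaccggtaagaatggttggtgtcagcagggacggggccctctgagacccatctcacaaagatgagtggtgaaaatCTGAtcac
SNORD93: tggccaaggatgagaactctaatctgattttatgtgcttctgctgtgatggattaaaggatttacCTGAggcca
SNORD36B: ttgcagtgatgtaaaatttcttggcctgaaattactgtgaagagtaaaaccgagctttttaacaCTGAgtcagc
SNORD84: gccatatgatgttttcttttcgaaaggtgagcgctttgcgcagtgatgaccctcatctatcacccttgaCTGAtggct
SNORD107, SNORD64 and the SNORD116 copies lie on chromosome 15 inside SNHG14, SNORD113-4 and SNORD114-13 on chromosome 14 inside MEG8, SNORD17 on chromosome 20 inside SNX5, SNORD93 on chromosome 7 inside SNHG26, SNORD36B on chromosome 9 inside RPL7A, and SNORD84 on chromosome 6 inside DDX39B. The C box letters were not found in the first 15 bases of SNORD93, SNORD36B and SNORD84. In these annotated transcripts SNORD114-13, SNORD116-24, SNORD17 and SNORD93 were wholly intronic, and the others touched an exon of at least 1 host transcript. Reads of those others and of the longer transcripts cannot be told apart here. Of the 152 members 136 had a GENCODE sequence, 64 to 237 bases long. Both boxes with exactly these letters were found on the transcript strand in 93 of the 136 (68.4%), against 79 of 106 (74.5%) of the other SNORD rows with a sequence. Of the 136, 80 touched a host exon and 56 were wholly intronic.

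Library depth was recovered from the steps of the RPKM values as 23253216, 23263095 and 19398694 reads for AKIT replicates 1 to 3 and 17657634 and 16242864 reads for E8 replicates 1 and 2. In a row of 70 bases, 1 read was worth 0.614 to 0.88 RPKM, so that the members rest on few reads. The median member had 15.2 reads per library, 45 members had a mean of at least 30 reads, 59 had a mean under 10, and 9 were at 0 in at least 1 library, where a 0 is compatible with as many as 3 reads by counting error alone. For each pair of libraries a chi-square per row was taken over its better-covered members only, 90 for the E8 pair and 86 to 101 for AKIT pairs. The chi-square was 1.1 between the E8 libraries, close to the value of 1 for pure read sampling. Between pairs of AKIT libraries it was 4.6 to 10.5. It was 4.6 between AKIT replicates 1 and 3, 5.7 between 2 and 3 and 10.5 between 1 and 2. Among the members AKIT replicate 1 was mostly low and AKIT replicate 2 mostly high, and the counts of calls are given below without each library. 5 pairs of members, SNORD109A and SNORD109B, SNORD62A and SNORD62B, and 3 pairs of SNORD116 copies, had identical values in every library and identical sequences, so the 152 members are 147 distinct rows. Both SNORD109 and both SNORD62 rows, SNORD116-5 and SNORD116-7, and SNORD116-17 and SNORD116-19 had a recovered length 2.0 times that in RefSeq. SNORD116-2 had 195 bases, against 97 in RefSeq. Whether such a row counts more than 1 copy is not given. Member levels had a median of 8.55 RPKM and ran from 1.01 to 135 RPKM. Just inside the threshold lay SNORD114-20 at 1.01 and SNORD9 at 1.04 RPKM, and just outside it SNORD114-3 and the pair SNORD103A and SNORD103B at 0.997 RPKM each. Of the other SNORD rows, 68 were listed at 0 in every library and 42 were above 0 but under the threshold. SNORD3A, SNORD13, SNORD14A to SNORD14E and SNORD118 were not analysed here.

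Between AKIT and E8, 8 members were higher in AKIT and 2 were lower, by limma on log2(RPKM + 1) with Benjamini-Hochberg adjustment at 0.05 over the 14776 rows tested. That is 6.58% of the members, against 20.0% of all rows tested (8.22% higher and 11.7% lower), and 6 of the 10 had under 30 reads on average. In 21 members every AKIT library was above every E8 library, and in 16 every AKIT library was below, against 25.8% and 28.6% of all rows tested (54.4% in either direction). The median log2 difference was -0.06 over the members and -0.01 over all rows tested, with 67 members above 0 and 85 below. The mean over both groups admits rows that are high in 1 group only: 9 members had an AKIT mean of at least 1 RPKM and an E8 mean under it, and 4 of the 8 higher calls, SNORD113-4, SNORD114-13, SNORD75 and SNORD93, are among these. The 3 members called in all 14 alternative analyses were SNORD107, SNORD116-4 and SNORD113-4. Differences are on the log2(RPKM + 1) scale, which understates the change of low rows.

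**Figure D1:**
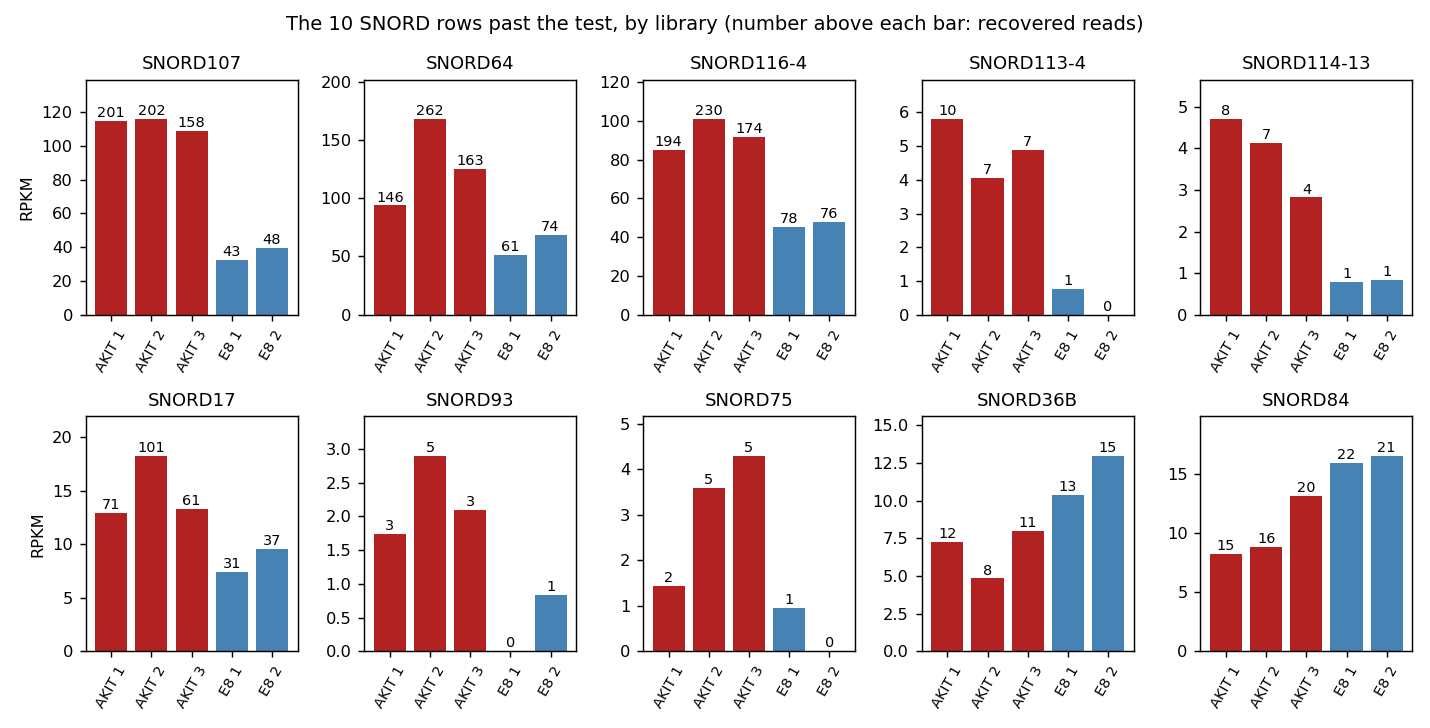
RPKM of the 10 SNORD rows past the test in each of 3 AKIT libraries (red) and 2 E8 libraries (blue), with the recovered reads above each bar and a separate linear axis for each row. SNORD107 has 158 to 202 reads in AKIT libraries against 43 and 48 in E8 libraries, while SNORD113-4, SNORD114-13, SNORD93 and SNORD75 rest on 10 reads or fewer in every library.

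In the SNHG14 region SNORD107, SNORD64 and SNORD116-4 were 3.15, 2.16 and 1.99 times as high in AKIT as in E8 by their mean RPKM, and none of the 31 members there was called lower with all 5 libraries. The 3 called higher are 9.68% of the 31, against 8.22% of all rows tested. Without AKIT replicate 2, 5 members of the region were higher, the identical rows SNORD109A and SNORD109B among them. In that analysis 3, SNORD116-21, SNORD116-24 and SNORD116-28, were lower, beside 14.5% higher and 17.8% lower among all rows tested then. SNORD107, an orphan snoRNA, had 115, 116 and 109 RPKM in AKIT replicates 1 to 3, against 32.5 and 39.4 RPKM in E8 replicates 1 and 2. The 3 AKIT libraries were close to each other, and all lay far above both E8 libraries. It averaged 113 ± 4.0 RPKM in AKIT (SD, n = 3) and 35.9 ± 4.90 RPKM in E8 (SD, n = 2), a log2 difference of 1.63 ± 0.11 (SE, adjusted p = 0.00057). Over pooled reads the rate was 3.17 times as high in AKIT, with a 95% interval of 2.54 to 4.0 that covers counting error only. SNORD107 touches an exon of a longer annotated transcript, so reads of the row and of that transcript cannot be told apart.

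SNORD64, a second orphan of the cluster, had 93.7, 168 and 125 RPKM in the AKIT libraries, against 51.6 and 68.0 RPKM in the E8 libraries. The groups did not overlap, but the AKIT libraries spread widely, with replicate 2 highest. The log2 difference was 1.07 ± 0.24 (adjusted p = 0.0246). The adjusted p was 0.0718 without AKIT replicate 3 and 0.19 or 0.0914 with E8 replicate 1 or 2 left out, and the call held without AKIT replicate 2 (log2 difference 0.86, adjusted p = 0.0141). SNORD108, which follows SNORD64 along the region, had 90.4, 188 and 108 RPKM in AKIT, against 62.4 and 82.1 RPKM in E8. Its groups did not overlap either, with AKIT replicate 2 far above the other AKIT libraries, and the difference of 0.76 ± 0.30 did not pass (adjusted p = 0.113). SNORD109A, identical in value to SNORD109B, had 61.6, 53.6 and 63.1 RPKM in AKIT, against 43.5 and 52.4 RPKM in E8, a difference of 0.31 ± 0.12 (adjusted p = 0.121; 0.0357 without AKIT replicate 2).

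The longer transcripts of the region did not all move with these snoRNAs. PAR5, a transcript whose annotated span holds SNORD64 and SNORD108, had 82.1, 156 and 89.9 RPKM in AKIT, against 45.9 and 57.5 RPKM in E8, and rose by 1.01 ± 0.27 on the log2 scale (adjusted p = 0.0397; 0.0712 without AKIT replicate 3, and 0.242 or 0.14 with E8 replicate 1 or 2 left out). SNORD64 and SNORD108 touch an exon of PAR5, and reads of these rows and of PAR5 cannot be told apart here. PAR-SN, a neighbouring noncoding transcript, had 62.2, 103 and 69.2 RPKM in AKIT, against 28.1 and 32.9 RPKM in E8, and rose by 1.3 ± 0.21 (adjusted p = 0.0084, up to 0.0872 over the alternatives). SNRPN, which encodes a splicing protein at the start of the same transcription unit, had a difference of -0.01 ± 0.11 (95% interval -0.27 to 0.25, adjusted p = 0.957), and IPW, a noncoding RNA of the cluster, one of 0.21 ± 0.10 (adjusted p = 0.188). UBE3A, a ubiquitin ligase gene that SNHG14 overlaps as antisense, had 33.2, 31.9 and 33.0 RPKM in AKIT, against 25 and 27.1 RPKM in E8, and rose by 0.32 ± 0.09 (adjusted p = 0.0497, up to 0.367 over the alternatives). Whether the counting used strand is not given, so reads of UBE3A and of its antisense transcript cannot be told apart.

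**Figure D2:**
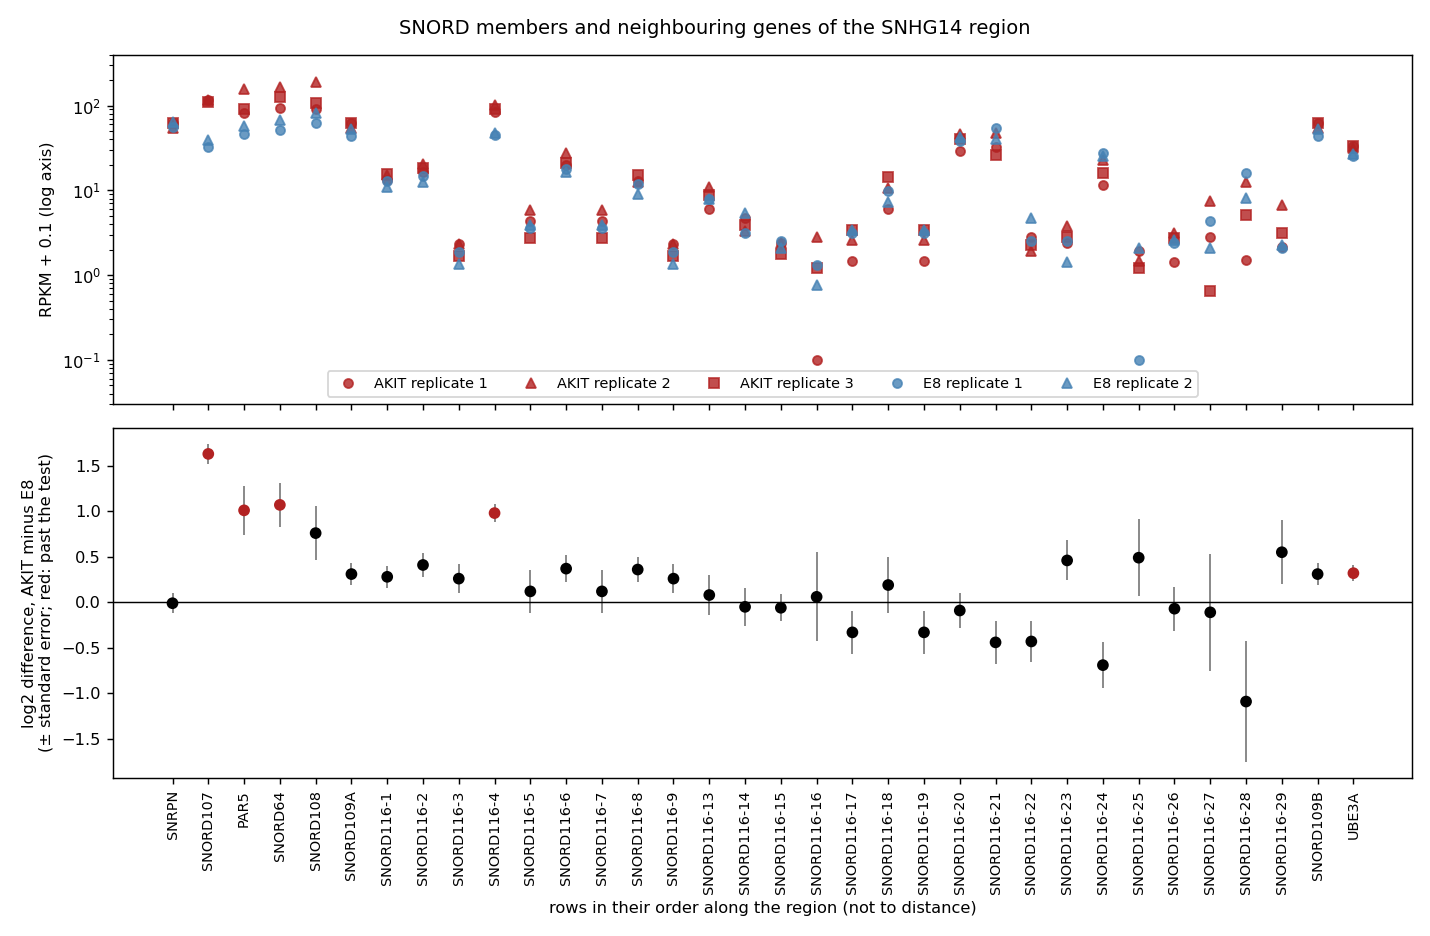
SNORD members and neighbouring genes in their order along the SNHG14 region: above, RPKM + 0.1 on a log axis in 3 AKIT libraries (red) and 2 E8 libraries (blue); below, the log2 difference of AKIT minus E8 with its standard error, red where it passed the test. SNORD107, PAR5, SNORD64 and SNORD116-4 stand at 0.98 to 1.63. SNORD116-1 to SNORD116-9 all lie above 0 with all 5 libraries used, and later SNORD116 copies lie on both sides of 0. MAGEL2 and NDN, which come before SNRPN, are not drawn. Their differences were -0.35 ± 0.20 and -0.23 ± 0.21, and neither passed the test.

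Within the SNORD116 family, 26 of 29 rows were members and SNORD116-4 was the 1 that passed. SNORD116-4 had 85.1, 101 and 91.5 RPKM in AKIT (194, 230 and 174 reads), against 45.1 and 47.7 RPKM in E8 (78 and 76 reads). All AKIT libraries lay well above both E8 libraries, and the log2 difference was 0.98 ± 0.10 (adjusted p = 0.00233). SNORD116-4 touches an annotated exon of SNHG14, so reads of the row and of the longer transcript cannot be told apart. The copies are commonly put in 3 subgroups by sequence. In subgroup I, SNORD116-1 to SNORD116-9, all 9 members (7 distinct rows) were above 0 with a median of 0.28. Without AKIT replicate 2 the identical rows SNORD116-5 and SNORD116-7 were at -0.09. In 5 of the 9 every AKIT library was above every E8 library, against 25.8% of all rows tested. Summed over the 7 distinct rows of subgroup I the level was 154, 184 and 165 RPKM in AKIT, against 108 and 101 RPKM in E8. Without SNORD116-4 it was 68.9, 82.9 and 73.8 RPKM in AKIT, against 62.5 and 53.4 RPKM in E8. The AKIT sums were above the E8 sums in both cases.

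Subgroup II, SNORD116-10 to SNORD116-24, had 12 members, of which 4 were above 0, with a median of -0.07. Its 11 distinct members summed to 97.4, 153 and 121 RPKM in AKIT, against 152 and 140 RPKM in E8, and here the groups overlapped. Its 3 highest rows were SNORD116-21, SNORD116-20 and SNORD116-24. SNORD116-21 had 32.0, 47.1 and 26.3 RPKM in AKIT, against 54.2 and 40.0 RPKM in E8 (-0.44 ± 0.24). SNORD116-20 had 28.8, 45.7 and 40.6 RPKM in AKIT, against 38.0 and 42.6 RPKM in E8, and its groups overlapped around the same level (-0.09 ± 0.19). SNORD116-24 had 11.4, 22.9 and 15.9 RPKM in AKIT, against 27.7 and 25.5 RPKM in E8. It was lower in every AKIT library, by -0.69 ± 0.25 (adjusted p = 0.0941; -0.93, adjusted p = 0.00718 without AKIT replicate 2). The 5 members of subgroup III summed to 9.30, 30.8 and 12.3 RPKM in AKIT, against 24.4 and 16.6 RPKM in E8, with AKIT replicate 2 highest of all libraries. The difference between subgroups was not tested. Subgroup I copies matched SNORD116-4 at 92.7% to 95.8% of aligned positions, members of subgroup II at 76.3% to 85.6% and members of subgroup III at 66.3% to 70.4%, so reads of subgroup I rows may be shared between near-identical copies, and their separate levels are uncertain. Of the 47 SNORD115 rows, 46 were listed at 0 in every library and the remaining row had 1 read in all, in E8 replicate 2.

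The MEG8 region had 7 members, of which SNORD113-4 and SNORD114-13 were higher in AKIT and none was lower. Among all rows tested 8.22% were higher and 11.7% lower. The membership rule tilts this group: 4 of the 7, SNORD113-1, SNORD113-4, SNORD114-13 and SNORD114-20, had an E8 mean under 1 RPKM and reached the threshold through the AKIT libraries, so the signs and the sum of the 7 are no measure of the region. Over all 38 SNORD113 and SNORD114 rows, with no threshold, the sum was 31.5, 42.2 and 49.3 RPKM in AKIT (53, 71 and 69 reads), against 23.7 and 24.1 RPKM in E8 (30 and 28 reads). The 3 members with an E8 mean of at least 1 RPKM summed to 16.2, 19.8 and 26.1 RPKM in AKIT, against 15.9 and 17.3 RPKM in E8, and these sums overlapped. SNORD113-4 had 10, 7 and 7 reads in AKIT (5.81, 4.07 and 4.88 RPKM), against 1 and 0 reads in E8 (0.765 and 0 RPKM). The log2 difference was 2.14 ± 0.25 (adjusted p = 0.00312), and the ratio of pooled rates was 12.3 with a 95% counting interval of 2.01 to 507. SNORD114-13 had 8, 7 and 4 reads in AKIT (4.71, 4.12 and 2.82 RPKM), against 1 and 1 reads in E8 (0.776 and 0.843 RPKM). Its groups did not overlap either, with a difference of 1.41 ± 0.19 (adjusted p = 0.00423; 0.0537 without E8 replicate 1) and a ratio of pooled rates of 4.88 (1.18 to 43.2).

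The highest row of that region, SNORD114-10, did not pass, with 10.9, 12.1 and 22.5 RPKM in AKIT, against 13.6 and 13.0 RPKM in E8, and overlapping groups (difference 0.11 ± 0.28, adjusted p = 0.805; -0.19 without AKIT replicate 3 and with the replicate block). The table held 7 SNORD113 and 31 SNORD114 rows, of which 1 and 11 were listed at 0 in every library. MEG8 itself had 3.37, 3.11 and 2.48 RPKM in AKIT, against 1.25 and 1.98 RPKM in E8, and rose by 0.62 ± 0.17 (adjusted p = 0.0475). That call was lost with each library left out, at adjusted p = 0.114, 0.0566 and 0.0606 without AKIT replicates 1, 2 and 3, and 0.323 and 0.103 without E8 replicates 1 and 2. DLK1, the paternally expressed gene of the same cluster that encodes a Notch ligand relative, had 21.0, 17.2 and 14.9 RPKM in AKIT, against 2.56 and 2.67 RPKM in E8, a rise of 2.35 ± 0.15 (adjusted p = 0.000499). MEG3, the maternally expressed noncoding RNA next to it, had 155, 327 and 188 RPKM in AKIT, against 277 and 272 RPKM in E8, and did not pass (-0.37 ± 0.29, adjusted p = 0.398; between 0.00639 and 0.737 over the alternatives). Since these are bulk libraries, fewer cells with a transcript and less of it per cell cannot be told apart.

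Outside the imprinted clusters 3 members were called higher and 2 lower, beside 8.22% higher and 11.7% lower among all rows tested. SNORD17, a long C/D box RNA in an intron of SNX5 that guides methylation of 28S ribosomal RNA, had 12.9, 18.3 and 13.3 RPKM in AKIT, against 7.41 and 9.61 RPKM in E8. The groups did not overlap, and the log2 difference was 0.73 ± 0.18 (adjusted p = 0.0322; 0.0632 without AKIT replicate 3, and 0.238 or 0.102 with E8 replicate 1 or 2 left out). Its host SNX5, a sorting nexin gene, had a difference of -0.03 ± 0.11 (95% interval -0.28 to 0.22). SNORD93 had 3, 5 and 3 reads in AKIT, against 0 and 1 in E8, a log2 difference of 1.25 ± 0.28 (adjusted p = 0.0236; 0.066 without AKIT replicate 3 and 0.148 without E8 replicate 1). SNORD75, 1 of the GAS5 snoRNAs, had 2, 5 and 5 reads in AKIT, against 1 and 0 in E8, a difference of 1.48 ± 0.39 (adjusted p = 0.0401; 0.0553 and 0.111 without AKIT replicates 2 and 3, and 0.0736 and 0.257 without E8 replicates 1 and 2). The 95% counting intervals of the pooled rate ratios, 0.822 to 243 for SNORD93 and 0.913 to 264 for SNORD75, include 1. SNORD93 and SNORD75 had E8 means of 0.416 and 0.472 RPKM. Both met the 1 RPKM rule through the AKIT libraries, so the rule tilts the sign of these 2 calls.

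The 2 lower members were low rows as well. SNORD36B lies inside the ribosomal protein gene RPL7A and touches an annotated exon of it, so reads of both cannot be told apart. It had 7.27, 4.84 and 7.99 RPKM in AKIT (12, 8 and 11 reads), against 10.4 and 13.0 RPKM in E8 (13 and 15 reads). It fell by 0.74 on the log2 scale, a difference of -0.74 ± 0.20 (adjusted p = 0.0445), while RPL7A rose by 0.50 ± 0.11 (adjusted p = 0.0225, up to 0.229 over the alternatives). The 2 other SNORD36 members of the same gene did not pass: SNORD36A had a difference of -0.05 ± 0.20 and SNORD36C of -0.09 ± 0.27. SNORD84, inside the RNA helicase gene DDX39B, had 8.27, 8.82 and 13.2 RPKM in AKIT, against 16.0 and 16.6 RPKM in E8, a difference of -0.66 ± 0.19 (adjusted p = 0.0491). Both calls were lost without AKIT replicate 1 (adjusted p = 0.0767 for SNORD36B and 0.111 for SNORD84), with E8 replicate 1 left out (0.142 and 0.22) and likewise with E8 replicate 2 left out (0.285 and 0.248). SNORD36B also lost its call without AKIT replicate 3 (0.0541), and SNORD84 without AKIT replicate 2 (0.0607).

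Among the highest rows, those outside the SNHG14 region did not pass. SNORD49B, from a noncoding host on chromosome 17, had the highest mean, with 120, 130 and 115 RPKM in AKIT, against 129 and 181 RPKM in E8. Its groups overlapped, and the difference was -0.33 ± 0.15 (95% interval -0.69 to 0.04, adjusted p = 0.176). SNORD58B, from the ribosomal protein gene RPL17, had 108, 90.5 and 95.3 RPKM in AKIT, against 110 and 133 RPKM in E8, with every AKIT library below both E8 libraries and a difference of -0.31 ± 0.13 (adjusted p = 0.126). SNORD86, from the C/D core protein gene NOP56, had 38.5, 119 and 59.9 RPKM in AKIT, against 77.0 and 93.1 RPKM in E8. AKIT replicate 2 was above and the other AKIT libraries below both E8 libraries, and the difference of -0.37 ± 0.41 (adjusted p = 0.553) was -0.80 without that library (adjusted p = 0.0279).

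That order of libraries recurred across the members. AKIT replicate 2 was the highest of the 5 libraries in 76 of 152 members (50.0%) and AKIT replicate 1 the lowest in 75 (49.3%), against 18.8% and 20.7% of all rows tested. The distinct members summed to 1915, 3369 and 2443 RPKM in AKIT, against 2462 and 2495 RPKM in E8, so the AKIT libraries lay on both sides of the E8 libraries. Without the 6 highest rows the sums were 1350, 2557 and 1831 RPKM in AKIT, against 2000 and 1898 RPKM in E8, and outside the SNHG14 region they were 1294, 2476 and 1740 RPKM in AKIT, against 1988 and 1995 RPKM in E8. The H/ACA box snoRNAs, the other large class, which guide the conversion of uridine to pseudouridine, had the same order in their 64 SNORA rows of at least 1 RPKM, at 393, 804 and 509 RPKM in AKIT, against 689 and 632 RPKM in E8. The 484 rows under 200 bases that are neither class did not, at 19299, 18270 and 17159 reads in AKIT, against 13827 and 12704 in E8, and relative to depth AKIT replicate 2 was the lowest of the 3 AKIT libraries there. The part of RNA extraction, library preparation or culture in this order was not tested.

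**Figure D3:**
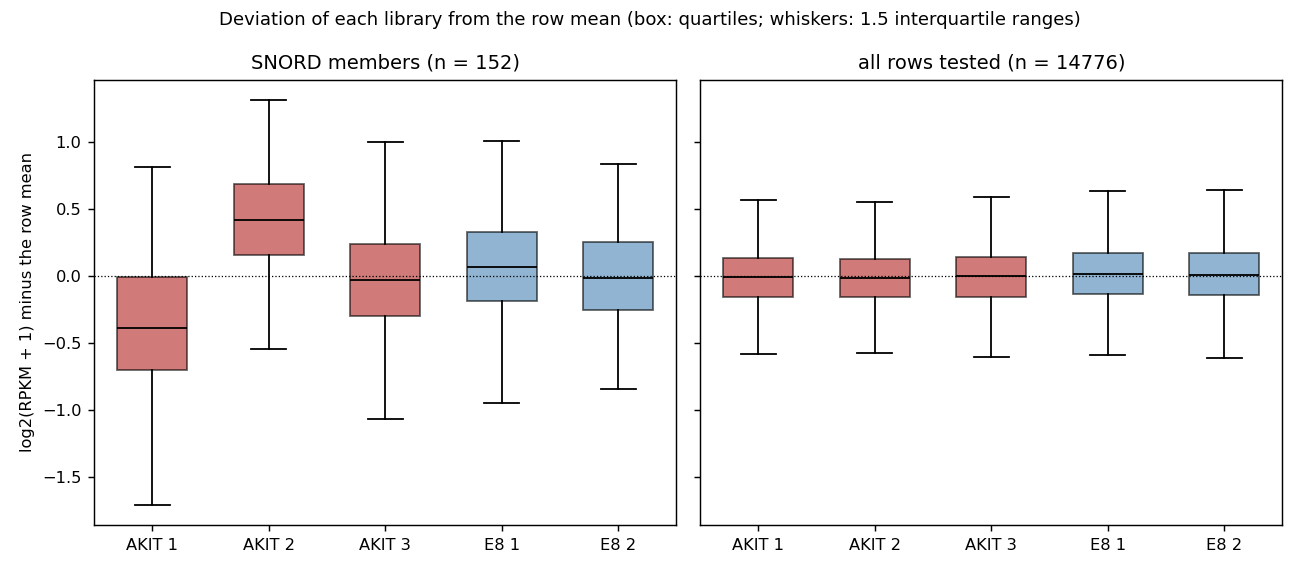
Log2(RPKM + 1) minus the row mean in each AKIT library (red) and E8 library (blue), for the 152 SNORD members and for the 14776 rows tested; boxes give quartiles and whiskers 1.5 interquartile ranges. The members' medians are -0.39, 0.42 and -0.03 in AKIT replicates 1 to 3 against 0.07 and -0.02 in E8 replicates 1 and 2, while the medians of all rows lie between -0.02 and 0.01.

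The counts of calls moved with the library left out. Without AKIT replicate 1, the low one, 13 members were higher and 2 lower, which is 9.87% of the members, against 13.9% of the rows tested in that analysis (5.35% higher and 8.5% lower), with a median of 0.10 over the members. The 3 calls of the SNHG14 region and the 2 of the MEG8 region were among the 13, and the 2 lower members were SNORD15A and SNORD19. Without AKIT replicate 2, the high one, 9 members were higher and 30 were lower, which is 25.7% of the members, against 32.2% of the rows tested in that analysis (14.5% higher and 17.8% lower). The median over the members was then -0.28, against -0.01 over all rows, and 8 of the 10 calls above were kept, as were 8 without AKIT replicate 1. The lower members without AKIT replicate 2 numbered 4 in GAS5, 4 in SNHG1, 3 in the ribosomal protein genes, 15 in other host genes, 1 in another noncoding host and 3 in the SNHG14 region. Those 3 were SNORD116-21, SNORD116-24 and SNORD116-28, while SNORD107, SNORD64, SNORD116-4, SNORD109A and SNORD109B were higher. Without AKIT replicate 3, 5 members were higher and 2 lower (4.61%, against 12.2% of all rows), without E8 replicate 1, 4 and 1 (3.29%, against 2.69%), and without E8 replicate 2, 6 and 0 (3.95%, against 2.66%).

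By host gene, the AKIT sums outside the imprinted clusters lay on both sides of the E8 sums. The 10 snoRNAs of GAS5, a noncoding gene known for its snoRNAs and for rapid decay of its spliced RNA, summed to 246, 530 and 247 RPKM in AKIT, against 302 and 315 RPKM in E8. GAS5 itself had 37.7, 74.1 and 37.1 RPKM in AKIT, against 46.4 and 44.0 RPKM in E8 (difference 0.06 ± 0.29, adjusted p = 0.91; -0.27, adjusted p = 0.0427 without AKIT replicate 2). In both the AKIT replicate 2 library was high and the other AKIT libraries were below E8. The 8 snoRNAs of SNHG1, a noncoding host of similar kind, summed to 161, 357 and 258 RPKM in AKIT, against 342 and 295 RPKM in E8, with AKIT replicate 2 the highest AKIT library in 8 of 8. SNHG1 had 131, 200 and 155 RPKM in AKIT, against 215 and 212 RPKM in E8 (-0.42 ± 0.17, adjusted p = 0.132; between 0.00804 and 0.411 over the alternatives). The 36 members in ribosomal protein genes summed to 326, 519 and 483 RPKM in AKIT, against 452 and 469 RPKM in E8.

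**Figure D4:**
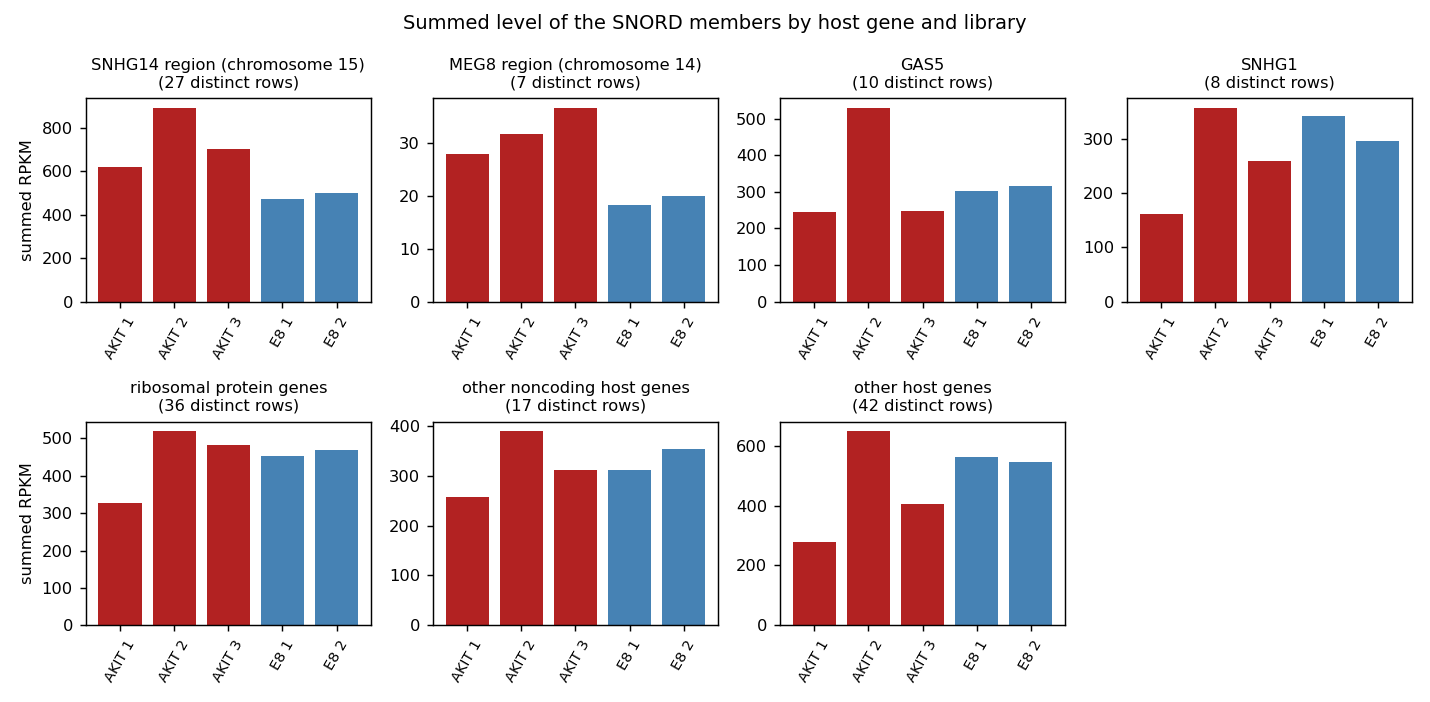
Summed RPKM of the distinct SNORD members by host gene or region in 3 AKIT libraries (red) and 2 E8 libraries (blue), each panel on its own linear axis from 0. The AKIT sums are above both E8 sums in the SNHG14 region (622 to 893 against 474 and 500) and lie on both sides of them in the panels outside the imprinted clusters. The MEG8 panel (28.0 to 36.7 against 18.3 and 19.9) holds 4 rows that reached 1 RPKM only through the AKIT libraries.

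Set beside their hosts, more members had a difference below that of the host gene than above it. Of the 53 host genes with a row, 16 were higher in AKIT and 2, C19orf48 and C6orf48, were lower. The median difference of the 53 was 0.21. Among all rows tested 8.22% were higher and 11.7% lower, with a median of -0.01. The 16 became 3 with the replicate block, 7 with no filter, 3 without AKIT replicate 3 and 0 and 1 without E8 replicates 1 and 2, and reached 19 with array weights. Of the 118 members with a tested host, 85 had a difference below that of the host and 33 above, with a median member minus host difference of -0.26. Members of 1 host share its value, so they are not separate observations. Of the 136 members with a sequence 80 touched a host exon, where reads may be shared. The log2(RPKM + 1) scale understates the change of low rows, and its part in these counts was not tested. The 16 higher hosts held 34 members, of which 4 passed: SNORD64 in PAR5 and SNORD113-4 and SNORD114-13 in MEG8 were higher, and SNORD36B in RPL7A was lower. In RPS12, a ribosomal protein gene that rose by 0.82 ± 0.13 (33.0, 33.1 and 39.3 RPKM in AKIT, against 17.3 and 21.8 RPKM in E8, adjusted p = 0.0089, up to 0.104 over the alternatives), SNORD100 had a difference of 0.18 ± 0.40 and SNORD101 of 0.07 ± 0.36. In C19orf48, which fell by 0.41 (114, 132 and 118 RPKM in AKIT, against 165 and 158 RPKM in E8, adjusted p = 0.0334; lost without E8 replicate 1 or 2 at 0.265 and 0.217, without AKIT replicate 1 or 3, and with the block), SNORD88B had 17.3, 24.4 and 12.2 RPKM in AKIT, against 28.6 and 31.1 RPKM in E8 (-0.75 ± 0.25, adjusted p = 0.0749). AKIT replicate 2 was the highest AKIT library in 18 of the 53 hosts and in 78 of these 118 members.

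**Figure D5:**
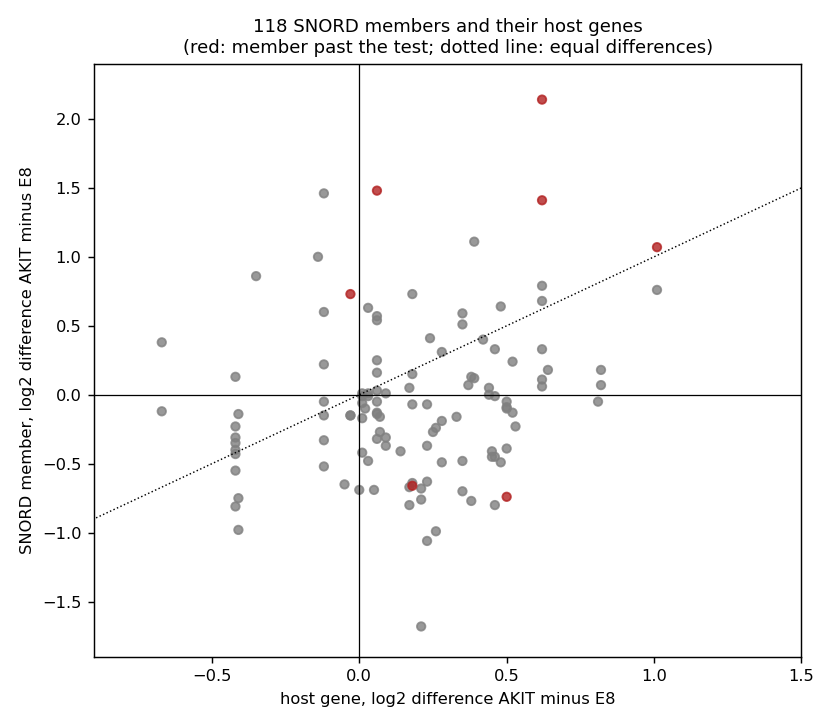
Log2 difference of AKIT minus E8 for 118 SNORD members (vertical) against that of the host gene (horizontal), red where the member passed the test, with a dotted line where both are equal. Of the 118 points 85 lie below the line and 33 above it, and members of 1 host share a horizontal position.

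Genes for the proteins that make and carry these RNAs were partly higher in AKIT. Of the 4 core proteins of the C/D particle 2 passed: FBL, the methyltransferase fibrillarin, had 83.1, 74.2 and 84.8 RPKM in AKIT, against 58.4 and 65.5 RPKM in E8 (0.38 ± 0.11, adjusted p = 0.0483), and NOP58 had 26.8, 27.3 and 31.5 RPKM in AKIT, against 21.2 and 22.1 RPKM in E8 (0.38 ± 0.11, adjusted p = 0.047). Of 14 assembly factors 3 were higher, TGS1, which forms the trimethylated cap, NOLC1, a nucleolar chaperone, and RPAP3, a subunit of the R2TP complex, at 0.44, 0.38 and 0.38. All 3 calls were lost with the replicate block, without AKIT replicate 3 and without either E8 library, with adjusted p up to 0.201, 0.261 and 0.305. Of 20 genes for intron debranching and end trimming, 1 was higher and 1 lower, both of them exosome subunits: EXOSC3 at 0.49 ± 0.13 (adjusted p up to 0.303 over the alternatives) and EXOSC6 at -0.78 ± 0.14 (up to 0.114). Of 24 genes for the U3 particle and the small subunit processome 10 were higher and 0 lower by limma, with a median of 0.37, beside 8.22% higher among all rows tested. The 10 became 2 with the replicate block, 2 without AKIT replicate 3, 0 and 1 without E8 replicates 1 and 2, and 16 with array weights. Among them UTP20 had 6.03, 6.73 and 7.83 RPKM in AKIT, against 2.60 and 2.82 RPKM in E8 (1.08 ± 0.13, adjusted p = 0.00357), and RRP9, a U3 protein, 8.11, 8.91 and 10.9 RPKM in AKIT, against 4.48 and 6.42 RPKM in E8 (0.68 ± 0.17, adjusted p = 0.0362). Of 14 genes of RNA polymerase I transcription 3 were higher, led by POLR1B at 0.67 ± 0.13 (adjusted p up to 0.14 over the alternatives), and of 10 factors of nonsense-mediated decay 1 was, SMG1 at 0.67 ± 0.13 (up to 0.135). The 3 polymerase genes became 0 with the block and without either E8 library. All rows tested had a median of -0.01 and 20.0% called. Over the alternatives the adjusted p reached 0.361 for FBL, 0.296 for NOP58, 0.0543 for UTP20 and 0.267 for RRP9.

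The libraries carried the markers of pluripotent cells. All 12 were above the filter, and they summed to 3731, 3952 and 4011 RPKM in AKIT, against 4159 and 4141 RPKM in E8. SOX2 fell by 0.79 on the log2 scale (220, 305 and 236 RPKM in AKIT, against 450 and 419 RPKM in E8, adjusted p = 0.0162), a call lost with the replicate block (0.0709), without AKIT replicate 3 (0.0525) and without E8 replicate 1 or 2 (0.152 and 0.118), and POU5F1 did not pass (0.08 ± 0.15). Of 12 fibroblast and mesenchyme markers 9 were tested, and 4 were lower and 0 higher. The list summed to 276, 212 and 216 RPKM in AKIT, against 370 and 368 RPKM in E8. With the block, and likewise without AKIT replicate 3, 2 were lower and 2 higher. Of 12 mesoderm and endoderm markers 7 were tested, 2 were higher and 1 lower, with sums of 146, 124 and 94.4 RPKM in AKIT, against 38.3 and 39.6 RPKM in E8, most of it KDR (133, 112 and 85.5 RPKM in AKIT, against 29.4 and 30.6 RPKM in E8). Of 10 neuroectoderm markers 5 were tested and 1, TUBB3, was higher (adjusted p = 0.0164, up to 0.173 over the alternatives). The part of these differences in the snoRNA results was not tested.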

How the data were processed

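Total RNA was purified on columns and sequenced as standard Illumina libraries, per the labels' protocols. The authors deposited RPKM values by gene symbol, normalized by row length and depth before deposit. The builds hg19 and GRCh37 are named, per the submitters' processing notes. Not given in the sources used here: aligner, counter, annotation, size selection and strand. Columns were matched to samples by title. E8 replicate 3 was not used, and the test planned for 3 libraries a group had 3 AKIT and 2 E8 libraries.

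Whole reads were recovered from the steps of the RPKM values. With a tolerance of 0.02 reads, 100% of the 19892 rows with any value above 0 were whole in all 5 libraries, and these reads came to 99.0% to 99.1% of each total. Library totals were set with RefSeq lengths of short rows. Where the length from the steps divided the RefSeq length of a SNORD row, the RefSeq length was taken. The match to RefSeq for 135 of 152 members is therefore no check on the recovery. These reads give depth and exact 95% intervals, which cover counting error only.

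The media were compared on log2(RPKM + 1) by limma 3.58.1 in R 4.3.3, with its trend option, two-sided, for rows with a mean of at least 0.5 RPKM, without covariates, and with Benjamini-Hochberg adjustment over all rows tested. SE and 95% intervals of differences are those of the moderated test. The main test used RPKM values. Recovered reads were used for the pooled rate ratios and for 1 added alternative, limma's voom.

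Hosts, chromosomes and sequences came from GENCODE release 29 (GRCh38) or, for 16 members without a sequence there, names and hosts from RefSeq. No coordinates are given, because that build differs from the table's. Named members were those past the test, the 6 with the highest mean RPKM, the 6 with the most reads, those next to the threshold, and the SNORD113 to SNORD116 families; hosts of these, and up to 4 called genes per list, could be named. Other members, and neighbours of the imprinted clusters, were named after their values were seen, and the sums over all SNORD113 and SNORD114 rows were added then. The members and the 15 gene lists were chosen with earlier results of these data known.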

Additional observations from a re-analysis of the deposited data

How the results depend on the processing

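Depth limits most members, since the median member had 15.2 reads per library. The alternatives run were no filter or one at 2 RPKM, a pseudocount of 0.5 or 0.1, scaling by median of ratios, array weights, limma with no trend, each library left out, a replicate block, and members of at least 30 reads or 10 RPKM; voom on recovered reads was chosen after seeing the data. The planned count tests, edgeR and DESeq2, were not run, because the deposited unit is RPKM. With 1 E8 library left out, the lone E8 library is assumed to vary like the AKIT libraries. Members higher numbered 8, and 5 with no filter, 4 with voom, 4 among members of at least 30 reads, 4 among those of at least 10 RPKM, and 4 to 13 with a library left out. Members lower numbered 2, and 1 with either other pseudocount or median-of-ratios scaling, 0 with no filter, without a trend, with voom or among members of at least 30 reads, 1 among those of at least 10 RPKM, 15 with array weights, and 0 to 30 with a library left out, where 30 is the count without AKIT replicate 2. All rows called numbered 2950, and 5009 with array weights, 1372 with the replicate block, and 392 to 4751 with a library left out (4751 without AKIT replicate 2, 1801 without AKIT replicate 3, 397 and 392 without E8 replicates 1 and 2). Pairing of the samples by replicate number remained undecided. Deviations of same-numbered libraries correlated at -0.00128 and 0.0254 over 2 shared numbers. These values cannot settle it, because the 2 E8 libraries differed little from each other. Their chi-square per row in the whole table was 3.4, against 17.4 to 33.2 for pairs of AKIT libraries. With the replicate block 10 members were higher and 2 lower. The 35 reversals were of 14 log2 differences that did not pass. SNORD114-20 (0.06) gave -0.48 and -0.01 with pseudocounts of 0.1 and 0.5, -0.30 with the block, -0.28 with voom and -0.30 to 0.53 with a library left out. SNORD9 (-0.27) gave 0.15 with the block and -0.66 to 0.15 with a library left out, SNX5 (-0.03) 0.00 and -0.10 to 0.02, SNORD114-10 (0.11) -0.19 and -0.19 to 0.30, and SNORD100 (0.18) -0.15 and -0.23 to 0.58. SNORD101 (0.07) gave -0.05 with array weights, -0.05 with the block and -0.21 to 0.46 with a library left out. SNRPN (-0.01) gave 0.01 with median-of-ratios scaling, 0.02 with array weights and -0.11 to 0.09 with a library left out. GAS5 (0.06) gave -0.11 with array weights and -0.27 to 0.22 with a library left out, and its -0.27, without AKIT replicate 2, had an adjusted p of 0.0427. With a library left out, SNORD116-5 and SNORD116-7 (0.12 each) ran over -0.09 to 0.35, SNORD116-20 (-0.09) over -0.23 to 0.10, SNORD36A (-0.05) over -0.18 to 0.15, SNORD36C (-0.09) over -0.49 to 0.32 and POU5F1 (0.08) over -0.02 to 0.19. Over the 70 log2 differences of named members, hosts and other genes that were followed, 763 values kept direction and side of the threshold, 163 no longer passed, 14 passed newly and 35 reversed. The causes were not tested.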

Other observations

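Of the 64 SNORA rows of at least 1 RPKM, 0 were higher in AKIT and 1 lower by limma. That is 1.56% called, against 20.0% of all rows tested, with a median log2 difference of -0.13. The 1 was SNORA69, with 0.326, 1.3 and 1.17 RPKM in AKIT, against 2.57 and 2.33 RPKM in E8 (difference -0.88, adjusted p = 0.0481, between 0.00966 and 0.241 over the alternatives). Without AKIT replicate 2, 2 of the 64 SNORA rows were higher and 15 lower, beside 14.5% higher and 17.8% lower among all rows tested then. Of the 6 genes listed for H/ACA core and assembly proteins 1 was higher, NAF1, an assembly factor, at 15.3 ± 0.86 RPKM in AKIT and 11 ± 1.52 RPKM in E8 (SD, n = 3 and 2; difference 0.45 ± 0.12, adjusted p = 0.0394, up to 0.325 over the alternatives).

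Of 30 ribosomal protein and translation factor genes listed as snoRNA hosts 12 were higher in AKIT and 0 lower by limma, with a median of 0.31, beside 8.22% higher among all rows tested. The 12 became 5 with the replicate block, 6 without AKIT replicate 3, 1 and 3 without E8 replicates 1 and 2, and 8 and 16 without AKIT replicates 1 and 2. RPL23 had 69.2, 63.6 and 71.7 RPKM in AKIT, against 28.2 and 22.3 RPKM in E8 (1.41 ± 0.12, adjusted p = 0.00142, up to 0.0223 over the alternatives). Of 29 other protein-coding hosts 5 were higher and 1 lower, MYRIP, and of 18 tested host genes without a known protein 2 were higher, SNHG5 and MEG8. All of these calls were lost with the block and without either E8 library.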
